A study of Rattus norvegicus with 6 samples.

Results

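The muscle microRNAs miR-1, miR-133 and miR-206 were examined in left ventricular myocardium of rats. Members were the miRNAs that the array lists as rno-miR-1-3p, rno-miR-1-5p, rno-miR-133a-3p, rno-miR-133a-5p, rno-miR-133b-3p, rno-miR-133b-5p, rno-miR-133c and rno-miR-206-3p, chosen by name, and all 8 were among the 758 miRNAs on the array. The donors of the tissue were male Wistar rats kept for 20 weeks on normal chow (3 samples) or on a high-fat diet (3 samples), with 1 single-colour (Cy3) array per sample. The rats' age was not given in the labels. Nor did the labels say whether samples of 1 diet were different animals, so the p-values cover only the spread among these samples, part of which may be technical. The comparison asked how the level of each miRNA on the high-fat diet differed from that on chow.

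MicroRNAs are short RNAs that bind messenger RNAs, mainly through a short stretch near their 5′ end called the seed, and lower the output of those messages. Genes of miR-1 and miR-133a, and likewise those of miR-206 and miR-133b, lie close together and are transcribed in pairs in striated muscle under muscle transcription factors such as MyoD, SRF and MEF2. miR-1 and miR-133a are abundant in heart and skeletal muscle, where they act in muscle differentiation, growth and cardiac conduction, while miR-206 and miR-133b are best known from skeletal muscle. Each hairpin precursor can give a 5′ strand (5p) and a 3′ strand (3p), of which usually 1 accumulates.

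The mature sequences are shown because the probes of close relatives have to tell them apart by few bases. All 8 members had an entry in the RefSeq sequence table (rat build GRCr8). The seed, bases 2 to 8 from the 5′ end, is in capitals.
rno-miR-1-3p: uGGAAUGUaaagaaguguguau
rno-miR-206-3p: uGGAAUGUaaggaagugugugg
rno-miR-1b: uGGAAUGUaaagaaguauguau
rno-miR-133a-3p: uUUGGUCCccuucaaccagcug
rno-miR-133b-3p: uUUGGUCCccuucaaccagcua
rno-miR-133a-5p: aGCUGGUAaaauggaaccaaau
rno-miR-133b-5p: gCUGGUCAaacggaaccaagu
rno-miR-133c: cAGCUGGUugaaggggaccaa
rno-miR-1-5p: gCACAUACuucuuuauguaccc

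The seed GGAAUGU was shared by miR-1-3p and miR-206-3p, and also by miR-1b, a relative on the array that is not a member. The 3 were the only miRNAs on the array with a RefSeq sequence carrying it. Counted from the 5′ end, miR-206-3p differed from miR-1-3p by A11G, A21G and U22G, and miR-1b differed from miR-1-3p by G17A alone. The seed UUGGUCC was carried by miR-133a-3p and miR-133b-3p and by no other such miRNA on the array. These strands were identical at 21 of 22 bases and differed by G22A at the last base. miR-133c has a seed of its own. All 21 of its bases are the reverse complement of miR-133a-3p, and it is read from the opposite strand at the same place (chr18:2157886-2157906, plus strand, against chr18:2157886-2157907, minus strand, for miR-133a-3p). Because the probe sequences were not used here, how far these relatives contribute to each other's signal was not tested, and the values of miR-1-3p and miR-1b, and of miR-133a-3p and miR-133b-3p, are uncertain to that extent.

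The precursors show the pairing of strands and genes. In each hairpin below, the mature strands listed by RefSeq are in capitals.
Mir1: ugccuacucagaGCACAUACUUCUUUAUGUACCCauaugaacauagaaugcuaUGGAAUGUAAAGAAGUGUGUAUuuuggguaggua
Mir133a1: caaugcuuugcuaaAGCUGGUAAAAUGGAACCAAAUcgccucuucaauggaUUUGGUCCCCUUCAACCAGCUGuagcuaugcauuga
Mir133b: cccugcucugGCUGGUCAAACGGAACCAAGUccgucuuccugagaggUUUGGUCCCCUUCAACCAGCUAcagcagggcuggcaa
On chromosome 18 the 3p strands of Mir1 (hairpin at chr18:2160327-2160413, minus strand) and Mir133a1 (chr18:2157872-2157958, minus strand) lay 2431 bases apart, within the span of the protein-coding gene Mib1. On chromosome 9 those of Mir206 (chr9:30590697-30590780, plus strand) and Mir133b (chr9:30594582-30594665, plus strand) lay 3860 bases apart, within the long non-coding RNA gene LOC120094648.

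The deposited signal is the background-subtracted fluorescence of a spot in arbitrary units, and the spots of a probe were averaged after flagged outliers were dropped. For comparison between arrays each signal was divided by its array's 75th percentile over probes well above background and put on the log2 scale, here called the scaled signal. A probe's brightness also depends on its sequence, so a higher signal of 1 miRNA than of another does not show that more of it was present. The 6 arrays correlated with each other at 0.990 to 0.996 across the 425 miRNAs tested, a miRNA being tested when its brightest probe cleared the background on 3 or more arrays. The 75th percentile was 359 to 424 on the chow arrays and 415 to 561 on the high-fat arrays, and all 3 high-fat arrays lay on slide 1 together with chow replicate 1, while chow replicates 2 and 3 lay on slide 2. As a check of the labelled tissue, the heart muscle miRNAs miR-208a-3p, miR-208b-3p and miR-499-5p were well above background on 6 of 6 arrays. The liver miRNA miR-122-5p was so on 0 of 6. Of the other liver and epithelial miRNAs listed, miR-192-5p was so on 6 of 6 arrays, and miR-200a-3p and miR-200b-3p on 1 each. Such markers were thus not all absent.

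Of the 8 members, 7 cleared the background on 6 of 6 arrays and were tested. The exception was miR-1-5p, the strand opposite miR-1-3p in the Mir1 hairpin. The brightest of its 4 probes was well above background on 1 array, chow replicate 2, with a signal of 12.9, and gave 3.77 and 4.76 on the other chow arrays and 6.05, 4.55 and 6.54 on the high-fat arrays. No diet difference is given for it, since the remaining arrays set only a bound. The 5p strand of miR-206, which is on the array but no member, was well above background on 0 of 6 arrays. By contrast both strands of miR-133a and of miR-133b were well above background on every array by their brightest probes. The other probe of miR-133b-5p was so on only 1 of 6 arrays.

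None of the 7 tested members passed the adjusted test between the diets (0 of 7; limma, Benjamini-Hochberg threshold of 0.05), where 0.471% of all tested miRNAs did. The median log2 difference of the family, high-fat diet minus chow, was -0.36, beside -0.04 over all 425 miRNAs tested. Means were lower on the high-fat diet for 6 of 7 members, as they were for 60.7% of all miRNAs. The high-fat arrays all lay below the chow arrays for 3 of 7 members, miR-133a-3p, miR-133a-5p and miR-133b-3p, beside 10.6% of all miRNAs in that direction, and they all lay above for 0 members, beside 6.59% of all miRNAs. The same 3 members had an unadjusted p under 0.05, beside 7.53% of all miRNAs in that direction. They are not independent of each other, being strands of 1 hairpin and near-identical paralogues. RNA of whole tissue was measured, so fewer muscle cells and less of a miRNA per muscle cell cannot be told apart.

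**Figure D1:**
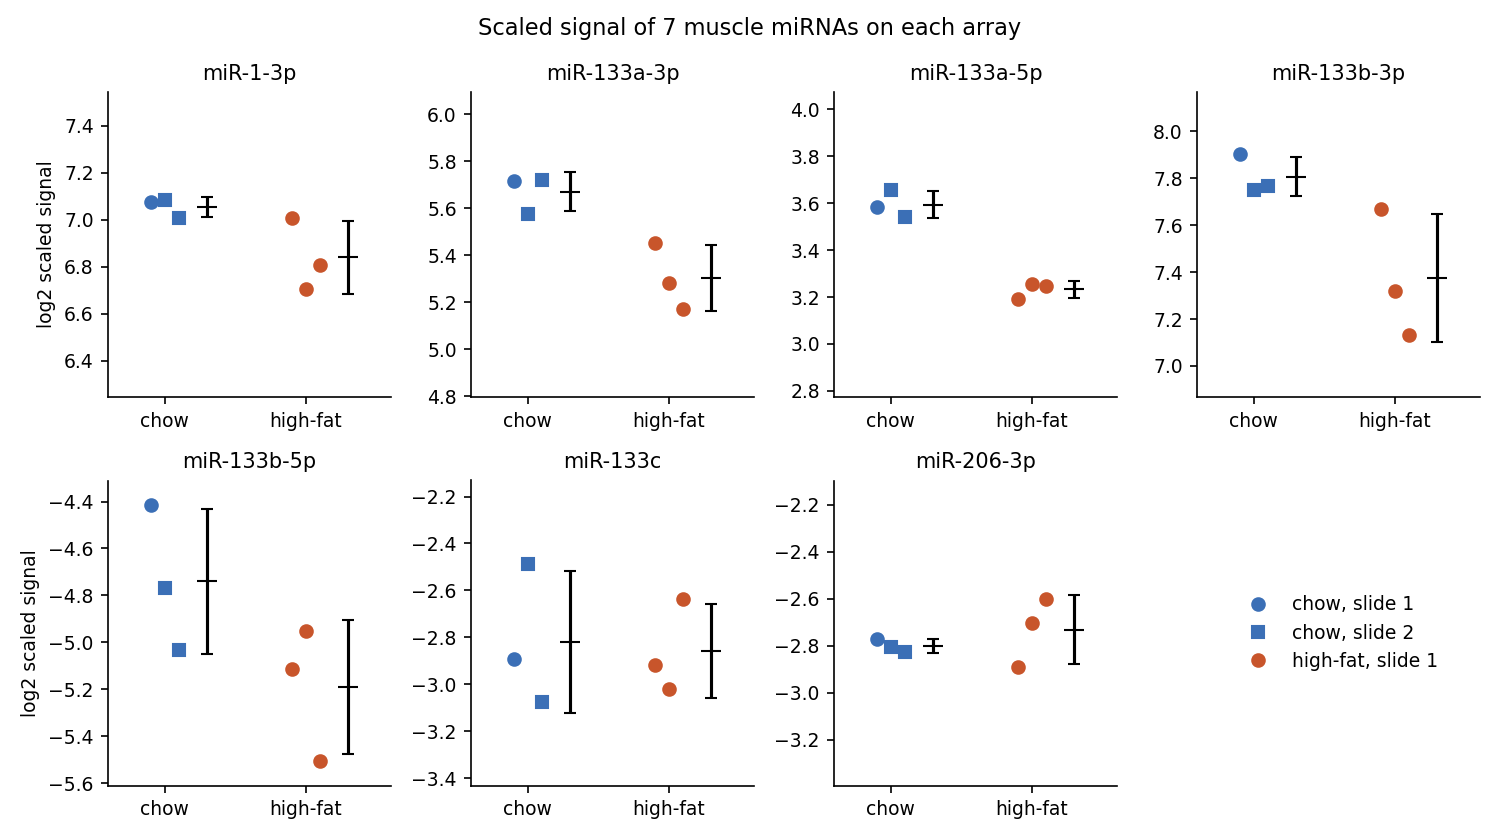
Scaled log2 signal (vertical axes, each spanning the same range of log2 units) of the 7 tested muscle miRNAs on each array by diet, with the mean and SD of the 3 arrays of a diet in black and slides as circles and squares. The high-fat arrays all lie below the chow arrays for miR-133a-3p, miR-133a-5p and miR-133b-3p and overlap them for the other 4.

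miR-133a-3p, the main product of Mir133a1 and an inhibitor of cardiac growth in mice, had scaled log2 signals of 5.72, 5.57 and 5.72 on the chow arrays and 5.45, 5.28 and 5.17 on the high-fat arrays. All high-fat values lay below all chow values, with means of 5.30 ± 0.14 and 5.67 ± 0.08 (SD, n = 3 each). The difference was -0.37 ± 0.11 (log2, SE), a 1.29-fold lower mean with a 95% interval from -0.63 to -0.11, and it did not pass the test over all miRNAs (limma adjusted p = 0.279).

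Its partner strand miR-133a-5p gave 3.58, 3.66 and 3.54 on chow and 3.19, 3.26 and 3.25 on the high-fat diet. These groups were also separate, and the gap of 0.28 between the lowest chow and the highest high-fat array was larger than the SD within either diet, 0.06 on chow and 0.04 on the high-fat diet. The log2 difference was -0.36 ± 0.09 SE (95% interval -0.57 to -0.15), with a limma adjusted p of 0.194, the smallest of the family. The strands of this hairpin thus had scaled differences of similar size, read by different probes. Both signals were, however, divided by the same value on each array. Without scaling the log2 differences were 0.00 for miR-133a-3p and 0.01 for miR-133a-5p. The size of both differences thus depends on the shared scaling, and their similarity is no separate evidence of a lower level. The median of all miRNAs was -0.04 with scaling and 0.32 without it, so both strands lay below that median either way.

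miR-133b-3p, from the skeletal muscle locus, gave 7.90, 7.75 and 7.77 on chow and 7.67, 7.32 and 7.13 on the high-fat diet. High-fat replicate 1 lay 0.08 below the lowest chow array and the other 2 further down, so the spread on the high-fat diet (SD 0.27) exceeded that on chow (SD 0.08). The log2 difference was -0.43 ± 0.15 SE (95% interval -0.78 to -0.09; limma adjusted p = 0.326). It was -0.31 without high-fat replicate 3 and -0.58 without high-fat replicate 1.

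Its partner miR-133b-5p was dim, with unscaled signals of 16.8, 15.6 and 11.5 on chow and 12.0, 17.2 and 12.3 on the high-fat diet. The scaled values overlapped between the diets, with an SD of 0.31 on chow and 0.29 on the high-fat diet. The log2 difference was -0.45 ± 0.20 SE, with a 95% interval from -0.91 to 0.01 and a limma adjusted p of 0.412. It was -0.29 when chow replicate 1 was left out, and likewise for high-fat replicate 3. With a floor 4 times higher, all its values were at the floor and the difference was 0. Within slide 1 it was -0.77, and with the software's total signal -0.28.

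miR-1-3p, which targets growth and calcium-handling messages in the heart, gave scaled log2 signals of 7.08, 7.09 and 7.01 on chow and 7.01, 6.70 and 6.81 on the high-fat diet. High-fat replicate 1 overlapped the lowest chow array, while the other high-fat arrays lay below all chow arrays. The log2 difference was -0.22 ± 0.11 SE, with a 95% interval from -0.47 to 0.04 and a limma adjusted p of 0.451, and it was -0.15 without high-fat replicate 2. The non-member miR-1b, 1 base different, had a log2 difference of -0.31 ± 0.15 SE (limma adjusted p = 0.438), also with overlapping arrays.

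miR-206-3p, the skeletal muscle relative of miR-1, was the 1 tested member with a higher mean on the high-fat diet. Its scaled log2 signals were -2.77, -2.81 and -2.83 on chow and -2.89, -2.70 and -2.60 on the high-fat diet. The diets overlapped, since high-fat replicate 1 was the lowest array of all, and the log2 difference was 0.07 ± 0.11 SE (95% interval -0.18 to 0.32; limma adjusted p = 0.836). It was 0.15 without high-fat replicate 1 and 0.005 without high-fat replicate 3. Its other probe was dimmer and gave a mean log2 difference of 0.47, with signals of 15.0, 18.3 and 19.4 on chow and 17.8, 43.0 and 39.5 on the high-fat diet, so the probes agreed in sign but not in size. miR-133c, the transcript antisense to miR-133a-3p, gave -2.89, -2.49 and -3.08 on chow and -2.92, -3.02 and -2.64 on the high-fat diet. Its diets overlapped fully, with a log2 difference of -0.04 ± 0.17 SE (95% interval -0.45 to 0.37; limma adjusted p = 0.940), and its sign turned within slide 1 (0.04).

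The second probes of 4 bright members, divided by the same value on each array, gave differences close to those of the probes used. The mean log2 difference of the second probe was -0.39 for miR-133a-3p, -0.41 for miR-133a-5p, -0.39 for miR-133b-3p and -0.21 for miR-1-3p. For the first 3 the high-fat arrays again all lay below the chow arrays. Spots of the same probe on the same array varied little for the bright members, with an SD on the log2 scale of 0.02 to 0.12 for miR-133a-3p and 0.04 to 0.09 for miR-133a-5p, and more for the dim miR-133b-5p, at 0.05 to 0.31. The second probe of miR-133b-5p was well above background on 1 of 6 arrays and gave a mean log2 difference of -0.20, smaller than the -0.45 of the probe used, and that of miR-133c gave -0.02.

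Before scaling, the signals of the miR-133 strands that separated the diets were alike in both. The unscaled signal of miR-133a-3p was 18906, 20213 and 19808 on chow and 18147, 20689 and 20202 on the high-fat diet. These values overlapped fully, and the means of 19642 ± 669 and 19680 ± 1349 (SD, n = 3 each) were nearly equal. The unscaled signal of miR-133a-5p was 4309, 5352 and 4377 on chow and 3788, 5085 and 5328 on the high-fat diet, also overlapping. The 75th percentile of the high-fat arrays meanwhile averaged 130% ± 19.9 of its chow mean (SD, n = 3; 2-sided exact permutation p = 0.2, where the smallest possible p is 0.1). Without scaling, the log2 differences were 0.00 for miR-133a-3p, 0.01 for miR-133a-5p, -0.06 for miR-133b-3p, -0.08 for miR-133b-5p, 0.15 for miR-1-3p, 0.33 for miR-133c and 0.44 for miR-206-3p, and the median of all miRNAs was then 0.32. Relative to that median both miR-133a strands stayed low, but in absolute terms their differences were then close to 0, and those of miR-133c and miR-1-3p turned from negative to positive. Whether the brighter high-fat arrays reflect labelling, hybridisation or the tissue was not tested.

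**Figure D2:**
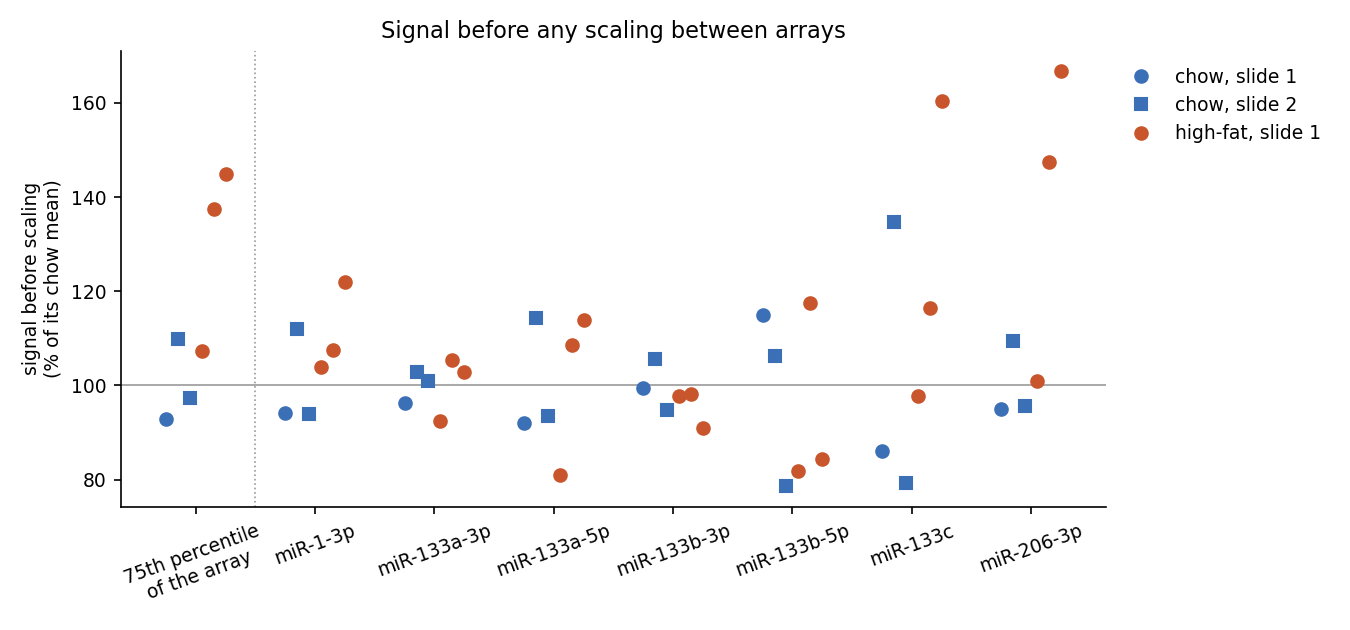
Signal before scaling on each array as a percent of its own chow mean (vertical axis), for the 75th percentile of the array and for the 7 tested muscle miRNAs. High-fat replicates 2 and 3 stand at 138% and 145% for the 75th percentile, while the high-fat arrays of miR-133a-3p lie between 92.4% and 105% and those of miR-206-3p between 101% and 167%.

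Scaling to the median gave log2 differences of -0.34 for miR-133a-3p and -0.34 for miR-133a-5p, and quantile normalisation gave -0.30 and -0.37. For the brightest miRNAs quantile normalisation fixes the value by rank: miR-133b-3p, which kept its rank, then differed by 0.00 and miR-1-3p by 0.10. The authors' deposited value table, which is quantile-normalised on the log2 scale, gave 0.00 for miR-1-3p, -0.07 for miR-133b-3p, -0.26 for miR-133a-3p and -0.46 for miR-133a-5p. Among the 20 brightest miRNAs, a number chosen after the values were seen, 17 were no members. Of these 17, 15 had a lower mean on the high-fat diet, beside 60.7% of all miRNAs. The median log2 difference of the 17 was -0.08 and the lowest -0.31 (miR-1b). For 0 of the 17 did all high-fat arrays lie below the chow arrays, beside 10.6% of all miRNAs. Within slide 1, against its single chow array, the differences were -0.42 for miR-133a-3p, -0.35 for miR-133a-5p, -0.53 for miR-133b-3p and -0.24 for miR-1-3p, and slide 2, with no high-fat array, gave none.

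**Figure D3:**
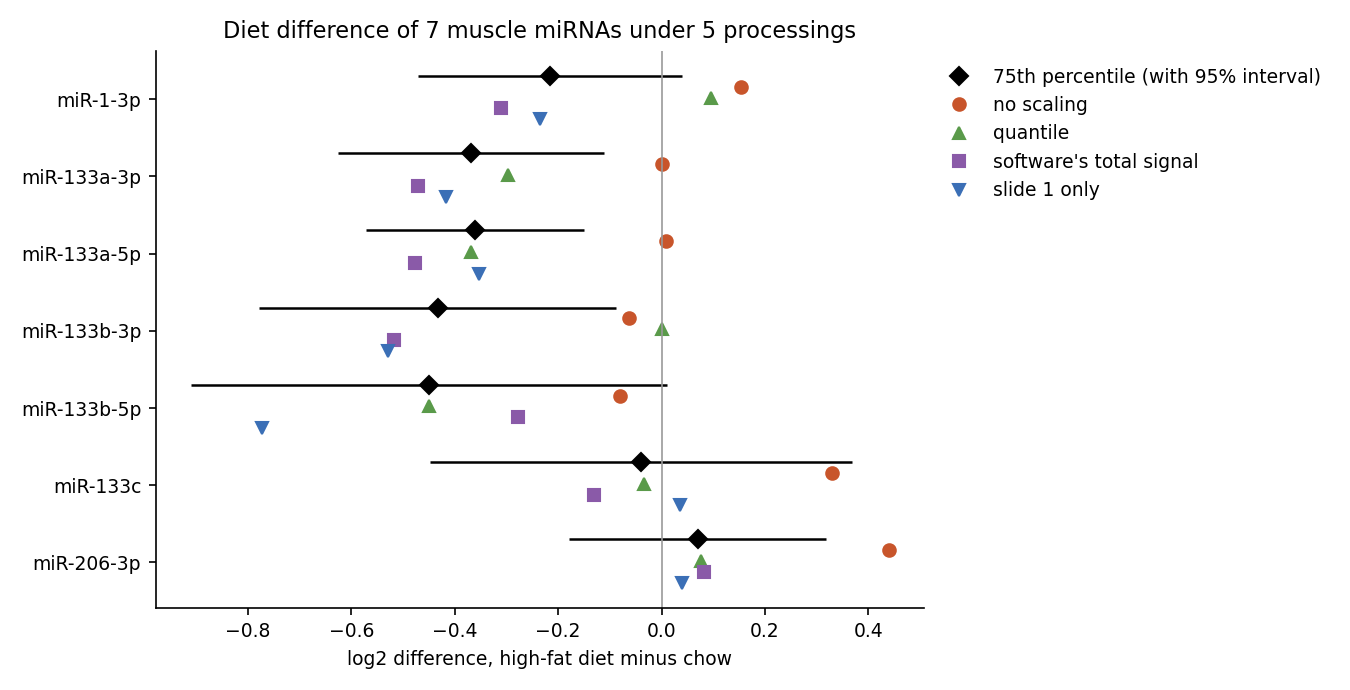
Log2 difference, high-fat diet minus chow (horizontal axis), of the 7 tested muscle miRNAs under 5 processings, with the limma 95% interval for the 75th-percentile scaling. The miR-133a strands lie between -0.48 and -0.30 under the 4 processings other than no scaling, and at 0.00 and 0.01 without scaling.

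A ratio of 2 miRNAs on the same array does not depend on a common scaling factor, so such log2 ratios were compared between the diets for 8 pairs (2-sided exact permutation test over the 20 assignments of the diet labels, smallest possible p = 0.1, Benjamini-Hochberg adjustment over the 8 pairs). None could pass the threshold at this size, and in all 8 the arrays of the diets overlapped. For the strands of the miR-133a hairpin, the log2 ratio of 3p to 5p relative to the chow mean was 0.06, -0.16 and 0.10 on chow and 0.18, -0.05 and -0.15 on the high-fat diet, a mean difference of -0.01 (exact p = 1, adjusted 1), smaller than the SD of 0.14 on chow and 0.17 on the high-fat diet. The sign of so small a difference turned in 9 of 22 alternatives. The ratio of miR-133a-3p to miR-133b-3p differed by 0.06 (exact p = 0.6, adjusted 0.8), and by 0.009 to 0.14 with an array left out. That of the miR-133b strands differed by 0.02 (exact p = 1, adjusted 1), and by 0.24 within slide 1.

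Between the neighbouring genes the ratios were lower on the high-fat diet. miR-133a-3p over miR-1-3p differed by -0.15 (exact p = 0.2, adjusted 0.6), with group SDs of 0.11 on each diet, and by -0.39 with quantile scaling. miR-133b-3p over miR-206-3p differed by -0.50 (exact p = 0.2, adjusted 0.6). It differed by -0.08 with quantile scaling, -0.05 with normexp added, -0.22 with the authors' deposited table and -0.32 without high-fat replicate 3. This ratio sets a bright probe against a dim one, with a mean log2 ratio of 10.6 on chow. Any part of miR-133a-3p in the miR-133b-3p signal was not tested. High-fat replicates 2 and 3 lay 0.59 and 0.87 below the chow mean of that ratio, whereas high-fat replicate 1 lay 0.05 below it, inside the range of the chow arrays. miR-1-3p over miR-206-3p showed the same split among the high-fat arrays, at 0.04 above and 0.45 and 0.45 below the chow mean (mean difference -0.29, exact p = 0.4, adjusted 0.64, and -0.45 without high-fat replicate 1). The 2 arrays that stand apart in these ratios are those with the highest 75th percentiles, 532 and 561, and the part of that in the ratios was not tested.

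**Figure D4:**
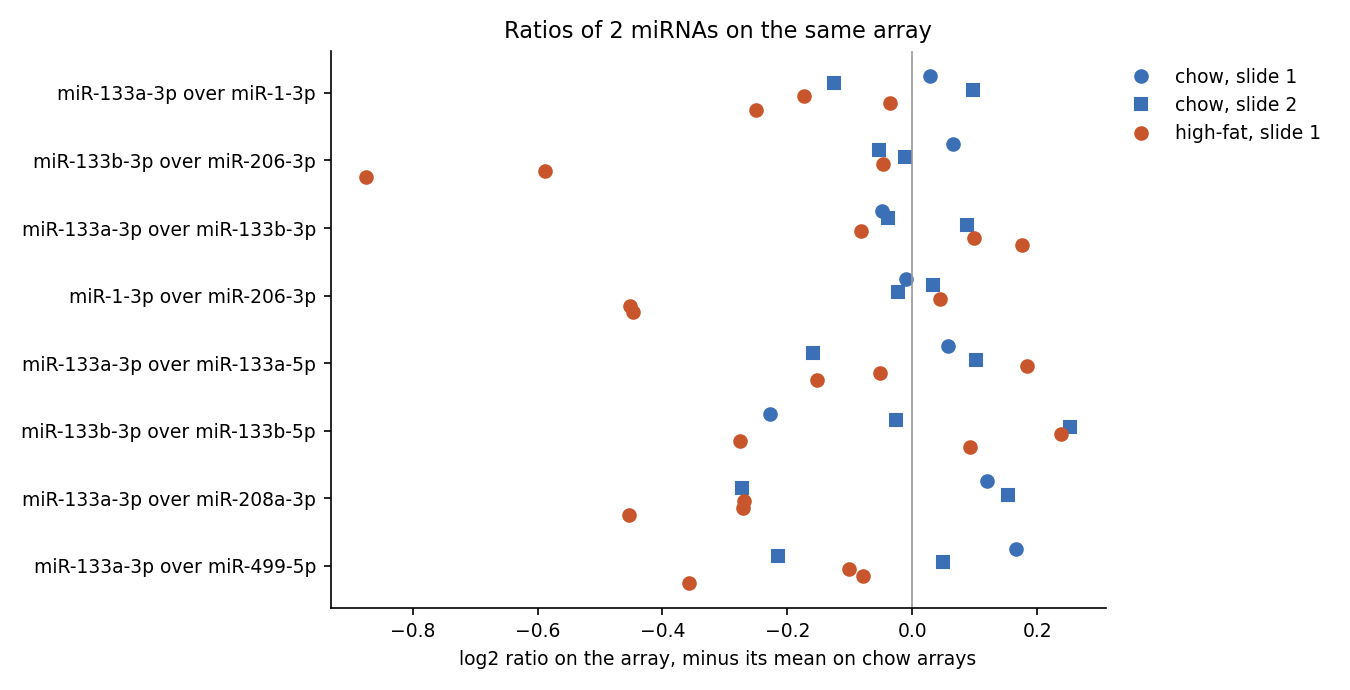
Log2 ratio of 2 miRNAs on the same array, minus the mean of that ratio on the chow arrays (horizontal axis), for 8 pairs and 6 arrays. The 3p to 5p ratio of miR-133a stays within 0.18 of the chow mean on every array, and miR-133b-3p over miR-206-3p lies 0.59 and 0.87 lower on high-fat replicates 2 and 3.

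miR-133a-3p was also set against 2 of the heart muscle miRNAs carried in myosin genes. Its ratio to miR-208a-3p, which is encoded in an intron of Myh6, differed by -0.33 (exact p = 0.3, adjusted 0.6), and chow replicate 2, at 0.27 below the chow mean, lay at the level of the high-fat arrays. Its ratio to miR-499-5p, from Myh7b, differed by -0.18 (exact p = 0.3, adjusted 0.6). The latter was -0.10 without chow replicate 1, -0.29 without chow replicate 2, -0.09 without high-fat replicate 3 and -0.34 within slide 1. Among the other heart and skeletal muscle miRNAs listed, 8 of 9 were on the array by that name and 7 were tested. None of the 7 passed the adjusted test (0 of 7), beside 0.471% of all miRNAs. Means were lower for 4, beside 60.7% of all miRNAs, and higher for 3, and the median log2 difference was -0.04. For 2 of the 7, miR-208b-3p and miR-499-5p, the high-fat arrays all lay below the chow arrays, beside 10.6% of all miRNAs in that direction. For miR-499-5p the lowest chow and highest high-fat arrays were only 0.0009 apart (log2 difference of means -0.19, limma adjusted p = 0.510). miR-208b-3p, from the slow myosin gene Myh7, had the largest of these differences at -0.97 ± 0.31 SE (limma adjusted p = 0.297), and -0.57 without high-fat replicate 2, while miR-378a-5p, from the metabolic regulator gene Ppargc1b, differed by 0.02 and miR-486 by 0.01.

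Markers of heart muscle and of other cell types were summed per array. The summed scaled signal of 3 heart muscle markers (miR-208a-3p, miR-208b-3p and miR-499-5p) was 28.1 to 33.1 on chow. On the high-fat arrays it was 24.3 to 28.0, narrowly below the chow range, and none of the 3 markers passed the adjusted test. Most of this sum was miR-499-5p, with a mean scaled log2 signal on chow of 4.80, beside 0.81 for miR-208a-3p and -0.24 for miR-208b-3p. miR-208a-3p overlapped between the diets, with a log2 difference of -0.04 (limma adjusted p = 0.930). The summed scaled signal of 3 erythroid miRNAs (miR-451-5p and both strands of miR-144) was 9.04 to 11.1 on chow and 13.8 to 20.2 on the high-fat arrays, and none of the 3 passed the adjusted test. All 3 erythroid sums on the high-fat diet thus lay above those on chow. Singly, the high-fat arrays all lay above the chow arrays for miR-144-3p (log2 difference 1.30) and miR-451-5p (0.57), while miR-144-5p (0.61) overlapped. miR-486, also an erythroid miRNA but listed above with muscle, was not in the sum. It differed by 0.01, with overlapping arrays. The sum of 2 endothelial markers was 68.8 to 72.3 on chow and 61.9 to 73.1 on the high-fat arrays, that of 2 smooth muscle markers 52.2 to 55.7 and 52.6 to 58.2, and that of 4 fibroblast markers 19.5 to 21.1 and 20.7 to 22.1. The sum of 4 leukocyte markers was 15.1 to 16.3 on chow and 14.8 to 16.2 on the high-fat arrays, and that of 4 liver and epithelial markers 0.440 to 0.641 and 0.393 to 0.525. These 5 sums overlapped between the diets, and of the 16 markers behind them 13 were tested and 0 passed. Single markers could differ from their sum. For 2 of the 4 fibroblast markers the high-fat arrays all lay above the chow arrays, beside 6.59% of all miRNAs. These were miR-21-5p (log2 difference 0.27) and miR-199a-5p (0.14), while miR-199a-3p (-0.11) and miR-214-3p (0.11) overlapped. The part of the erythroid signal in the muscle values was not tested.

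The miRNAs outside the family whose profile over the 6 arrays came closest to that of miR-133a-3p were miR-30c-5p, miR-431, miR-326-3p, miR-345-5p and miR-181c-3p. Likeness was measured as the root mean square difference of mean-centred log2 signals, which was 0.06 for miR-30c-5p and 0.09 for miR-181c-3p. By the same measure the family members miR-133b-3p (0.09) and miR-1-3p (0.12) took places 4 and 18 among the tested miRNAs, miR-133a-5p (0.13) place 24, miR-133b-5p (0.23) place 191, and miR-206-3p (0.28) and miR-133c (0.33) places 275 and 326.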

How the data were processed

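Per the labels' protocols, Cy3-labelled total RNA of each sample went onto an Agilent miRNA array. The deposited files hold spot intensity on a linear scale from Agilent Feature Extraction 11.0.1.1, background-subtracted and detrended within each array, per the file headers, with the version also in the submitters' processing notes. The authors' deposited value table holds log2 values, which follow the log2 total signal of each array and have the same distribution on every array. Its centring is unknown.

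Of 12128 miRNA spots (1806 probes, 758 miRNAs), 9.07% to 9.42% per array were dropped as flagged outliers, and 0 were saturated. The 715 control spots were not used. A probe was well above background when at least 50% of its spots were. Scaling used the 757 probes that met this on every array. Scaled values under the 1st percentile of detected probes (log2 -5.82) were set to it. The brightest probe stood for its miRNA. The diets were compared with limma 3.58.1 (R 4.3.3) without covariates over 425 miRNAs, and the fit was tested on simulated data. The number of arrays limits the precision. Members, lists and tests were chosen with earlier results of these data known. Named were all members, the listed muscle miRNAs and the 5 miRNAs closest in profile to miR-133a-3p. The choice to name miR-1b and miR-206-5p came after seeing their values. Alternatives covered background correction, scaling, probe choice, filters, floor, blocks and leaving out each array. The files have no mean signal, so normexp used the median signal.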

Additional observations from a re-analysis of the deposited data

How the results depend on the processing

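None of the 7 tested members passed the adjusted test in any of the 22 alternatives (limma; 3 members had an unadjusted p under 0.05 in the analysis reported), and over these the smallest adjusted p was 0.0636, for miR-133a-5p. The number of members whose high-fat arrays all lay lower, 3, was 1 with the authors' table, 0 without scaling, 5 within slide 1 and 3 to 5 when an array was left out; with fewer arrays, separation is easier by construction. Over all miRNAs the number called, 2, was 8 with normexp and the 75th percentile, 5 without scaling, 1 with the mean over probes, 0 with the authors' table, quantile scaling, no filter, a higher floor, slide as a block or slide 1 only, and 0 to 3 when an array was left out. The number of all miRNAs with separate arrays, 73, was 139 with normexp and the 75th percentile, 122 with the total signal, 263 within slide 1 and 94 to 147 with an array left out.

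Signs turned as follows. miR-1-3p was at 0.10 with quantile scaling, with or without normexp, and 0.15 without scaling. Without scaling miR-133a-3p was at 0.00 (0.00097), miR-133a-5p at 0.01 (0.00794) and miR-133c at 0.33. miR-133c was at 0.035 with slide as a block or slide 1 only and at -0.17 to 0.13 with an array left out. miR-206-3p was at -0.052 with normexp and the 75th percentile. The ratio of miR-133a-3p to miR-133b-3p was -0.30 with quantile scaling, with or without normexp, and -0.19 with the authors' table; that of miR-1-3p to miR-206-3p was 0.019 with quantile scaling and 0.046 with normexp added. The miR-133a strand ratio was 0.039 with normexp and quantile scaling, 0.0051 with the total signal, 0.0054 with the mean over probes, 0.20 with the authors' table, 0.072 with quantile scaling, and -0.10 to 0.066 with an array left out. The miR-133b strand ratio was -0.089 with normexp and the 75th percentile, -0.24 with the total signal, -0.091 with the mean over probes, -0.013 with outlier spots kept, -0.43 with a higher floor, and -0.10 to 0.16 with an array left out. The cause of these shifts was not tested.

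Replicate numbers are not stated to pair the samples. Deviations of same-numbered arrays from their diet means correlated at 0.22, -0.01 and 0.06, which with 3 arrays per diet cannot decide whether samples were paired. With the replicate block, 3 miRNAs were called over all, 0 of them members, and miR-133a-3p differed by -0.37. Dim members such as miR-133b-5p and miR-1-5p, near the background, are limited by signal.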
